A study of Homo sapiens with 9 samples.

Results

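NF-kB is a family of dimeric transcription factors, and the genes described here are the parts of its signalling pathway and some of the genes it is known to switch on. They were chosen by name, with earlier results of these data known. There were 42 genes in all: factor subunits, inhibitors, kinases, adaptors, feedback regulators, receptors and membrane or secreted targets. Of these, 38 were measured by a probe set that names no other gene, among 11963 genes measured in the series. BCL3, a nuclear member of the inhibitor family, was named only by 2 probe sets that name a further gene as well. TRAF2, RIPK1 and IRAK4 were named by none of the annotated probe sets. These 4 genes therefore have no value here.

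In resting cells the NF-kB subunits are held in the cytoplasm by inhibitor proteins of the I kappa B family. Receptors for tumour necrosis factor, interleukin-1 and related signals recruit adaptors that activate the I kappa B kinases, which mark the inhibitors for destruction and release the subunits to the nucleus. There they bind kappa B sites and raise genes for inflammation, adhesion and survival, among them genes for their own inhibitors, so the transcripts of feedback members are commonly read as a sign of activity. In basal-like breast cancer lines the pathway is known for a raised activity without added signal.

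The cells were MDA-MB-231, an established, adherent human breast cancer line, profiled on Affymetrix human arrays from total RNA. There were 3 groups of 3 arrays, each array from its own passage. Sensitive cells were kept in 1 µM verapamil, which blocks calcium channels and the efflux pump P-glycoprotein. The docetaxel-resistant line was kept in 1 µM verapamil with 2 nM docetaxel, and the paclitaxel-resistant line in 1 µM verapamil with 7 nM paclitaxel. Verapamil was therefore shared by all 3 groups, and both drugs are taxanes, which stabilise microtubules. Each resistance was represented by 1 line and sensitive cells received no taxane, so selected line and drug in the medium cannot be told apart, and a p-value here measures how passages vary.

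Values are deposited probe set intensities on a linear scale. Differences are of mean log2(intensity + 16) after quantile normalisation, given with a standard error (SE, n = 3 per group), and a gene was called when its limma p, with Benjamini-Hochberg adjustment across the 11963 genes, lay below 0.05. The offset of 16 makes a difference from a low intensity smaller than it would otherwise be. Array medians ran from 33.7 in sensitive replicate 2 to 43.9 in docetaxel-resistant replicate 3. Pairs of arrays correlated, over genes that are not independent of each other, at 0.967 to 0.992 within groups and at 0.889 to 0.953 between sensitive and docetaxel-resistant arrays. The GAPDH 3' minus 5' log2 difference, a sign of RNA quality, was 0.014 to 0.039 on sensitive arrays, 0.0067 to 0.13 on docetaxel-resistant ones, 2 of 3 above the sensitive range, and 0.094 to 0.20 on paclitaxel-resistant ones. Its part in any difference was not tested. Of the epithelial markers KRT8, KRT18 and KRT19 were well above the array medians, while EPCAM lay under the lowest array median, at 9.93 to 27.3, as did the leukocyte marker PTPRC, at 3.70 to 11.6.

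In both resistant lines the genes that were called were mostly lower. Against sensitive cells, ICAM1, TNFRSF1B, NFKBIE and TRAF1 fell in either line, together with the kinases IKBKB and IKBKE and the adaptors TRAF3 and MYD88. IL7R, MAP3K7, TAB2 and TRAF5 rose in either line. None of the 5 factor subunits was called. The arrays measure transcripts in bulk culture, not protein or nuclear NF-kB, and fewer cells expressing a gene and less of its RNA per cell cannot be told apart. NFKBIA, TNFRSF1A and TNFAIP3 were called lower in the docetaxel-resistant line and not in the paclitaxel-resistant one. For IRAK1 it was the other way round, but the difference between the lines was not called in any of these genes.

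In the docetaxel-resistant line 16 of 38 genes (42.1%) were called, 4 higher and 12 lower, where 21.0% of all genes were called, 10.8% higher and 10.2% lower. Their median difference was -0.24, against -0.05 over all genes, and their median absolute difference was 0.48 against 0.24. In the paclitaxel-resistant line 14 of 38 (36.8%) were called, 4 higher and 10 lower, where 21.6% of all genes were called, 10.8% higher and 10.7% lower. The median difference there was -0.29, against -0.02, and the median absolute difference 0.40 against 0.23. In each line 29 of the 38 differences were negative and 9 positive. The sensitive arrays are shared by both comparisons, so their values are given side by side and not as 2 independent results. Over the 3 groups together, the moderated F test called 15 of the 38 genes, where it called 24.1% of all genes. Among genes at or above the median level 12 and 11 of 24 members were called in the docetaxel- and paclitaxel-resistant line. Of all genes at that level 37.3% and 38.4% were called, so the members stood closer to the share of all genes there. The members were chosen with earlier results of these data known, so these shares are no independent support.

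On the normalised scale the arrays of the docetaxel-resistant line all lay below the sensitive ones in 16 genes and above them in 4, where 20.5% and 16.3% of all genes did (36.8% either way). In the paclitaxel-resistant line these numbers were 16 and 5, where 18.5% and 16.3% of all genes did (34.8% either way). Without sensitive replicate 2 and docetaxel-resistant replicate 3, the arrays of lowest and highest median, 9 of the 16 calls of the docetaxel-resistant line were kept, where 8.77% of all genes were called. All 14 calls of the paclitaxel-resistant line were kept there, where 16.8% of all genes were called. At that setting the calls of NFKBIA, TNFRSF1A, TNFAIP3, TNFAIP2, MYD88, TAB2 and TRAF3 in the docetaxel-resistant line were the ones lost. Their adjusted p values, in that order, were 0.0693, 0.0749, 0.408, 0.123, 0.277, 0.144 and 0.0733. With sensitive replicate 2 alone left out, 12 members were called in the paclitaxel-resistant line, 2 of them higher, where 1887 of all 11963 genes were called.

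**Figure D1:**
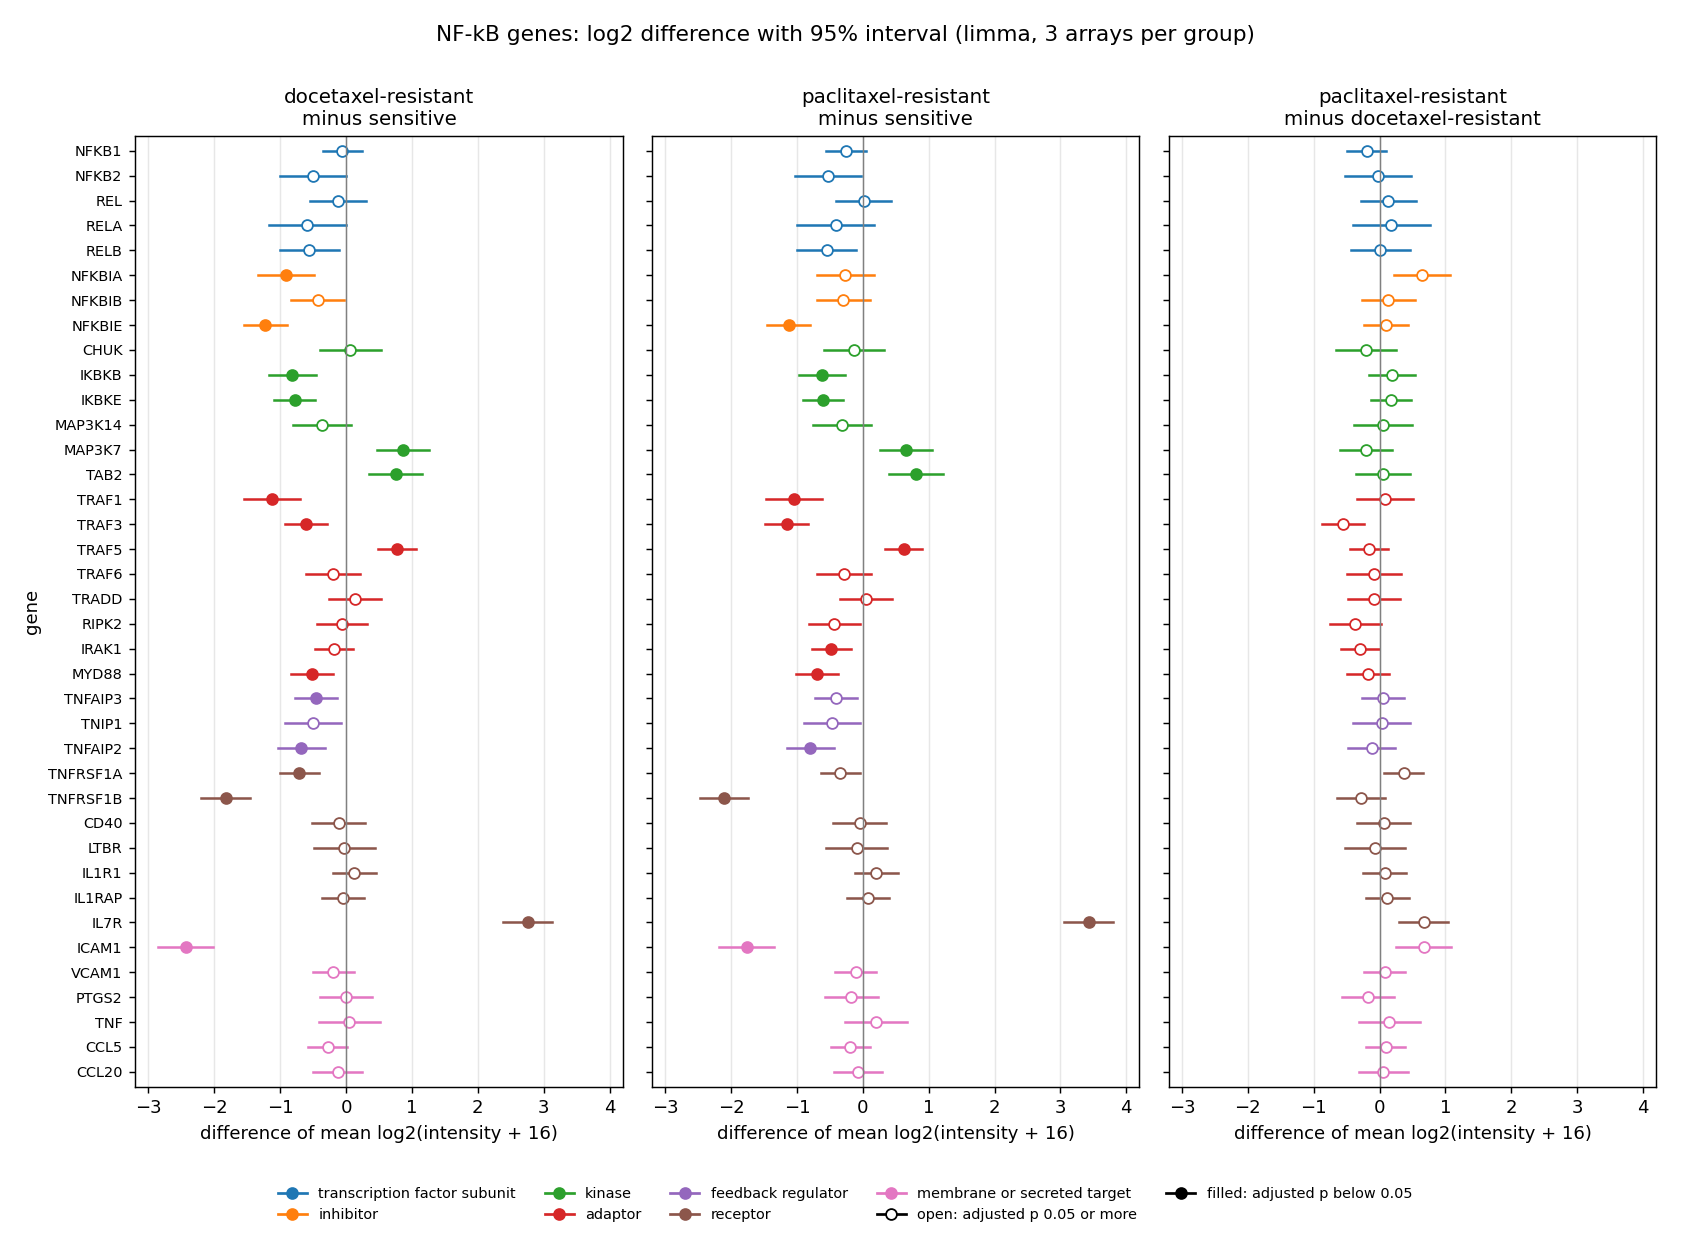
Log2 difference (x axis, difference of mean log2(intensity + 16)) of each of the 38 measured NF-kB genes (y axis, ordered and coloured by role) with its 95% interval from limma, for the docetaxel-resistant and paclitaxel-resistant lines against sensitive cells and for the paclitaxel-resistant against the docetaxel-resistant line. Filled points are called at an adjusted p below 0.05: 16, 14 and 0 of 38, with IL7R at 2.76 and 3.43, ICAM1 at -2.43 and -1.76 and TNFRSF1B at -1.83 and -2.11 against sensitive cells.

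Since the known action of NF-kB is to bind kappa B sites, the promoters of the members were searched for them, on both strands of the 250 bases before each annotated start in the RefSeq promoter table (GRCh38.p14). Of the 42 members 35 had an entry. The degenerate kappa B consensus was found in 10 of the 35 (28.6%) and in 1715 of 27305 genes in the table (6.28%). The 10 were NFKB1, NFKB2, REL, NFKBIA, NFKBIB, TNFAIP3, TNIP1, TRAF3, VCAM1 and CCL20. The exact letters GGGACTTTCC were found in NFKB2, TNFAIP3 and TNIP1, 3 of 35 (8.57%) against 0.216% of all genes. ICAM1 had no match to the longer consensus. It held the letters GGAAATTCC, a search that was added after the first result was seen. That shorter core overlaps the longer matches of NFKB1, NFKBIA, NFKBIB and REL, and was found in 5 of 35 (14.3%) against 0.502% of all genes. ICAM1 is counted in those 5, although the core was searched after ICAM1 had shown no longer match. The members include genes chosen as known NF-kB targets, so none of these shares is independent support.

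The sequences below show the matches of the called members ICAM1, NFKBIA, TNFAIP3 and TRAF3 and of the uncalled NFKB1, NFKB2 and TNIP1, so that the letters can be set beside the values that follow. They run 5′ to 3′ on the gene's strand and end before the start, and capitals mark the match, which on the strand printed may be the reverse complement of the motif. The ICAM1 stretch is the whole window of 250 bases at chr19:10270870-10271119 on the plus strand, with its match 186 to 178 bases before the start. The others are windows around the match: NFKBIA at chr14:35404796-35404855 on the minus strand, TNFAIP3 at chr6:137867167-137867238, TRAF3 at chr14:102777391-102777448, NFKB1 at chr4:102501285-102501344 and NFKB2 at chr10:102395659-102395704 on the plus strand, and TNIP1 at chr5:151081042-151081101 on the minus strand.
ICAM1: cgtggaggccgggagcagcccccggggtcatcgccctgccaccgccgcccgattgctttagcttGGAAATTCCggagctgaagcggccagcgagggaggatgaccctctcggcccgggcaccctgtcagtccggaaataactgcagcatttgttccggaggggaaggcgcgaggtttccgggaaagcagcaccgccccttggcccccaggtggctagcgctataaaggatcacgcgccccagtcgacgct
NFKBIA: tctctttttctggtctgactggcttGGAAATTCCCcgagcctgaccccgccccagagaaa
TNFAIP3: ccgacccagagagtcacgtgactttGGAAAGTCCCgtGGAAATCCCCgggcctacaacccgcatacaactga
TRAF3: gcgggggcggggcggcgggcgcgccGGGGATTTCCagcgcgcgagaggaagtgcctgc
NFKB1: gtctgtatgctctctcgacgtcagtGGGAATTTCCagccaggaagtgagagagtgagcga
NFKB2: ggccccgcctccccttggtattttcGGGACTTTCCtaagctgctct
TNIP1: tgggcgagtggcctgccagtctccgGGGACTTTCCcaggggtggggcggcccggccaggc

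TNFAIP3 held 2 adjacent matches, both on the opposite strand, and the first is the exact GGGACTTTCC read in reverse complement. NFKB2 had matches before each of 2 annotated starts, and the exact one is printed. The match of NFKBIA lay 81 to 72 bases before the start, and apart from those of ICAM1 and NFKB2 all other matches lay closer to it. A match is only a run of letters and does not show that a factor was bound.

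**Figure D2:**
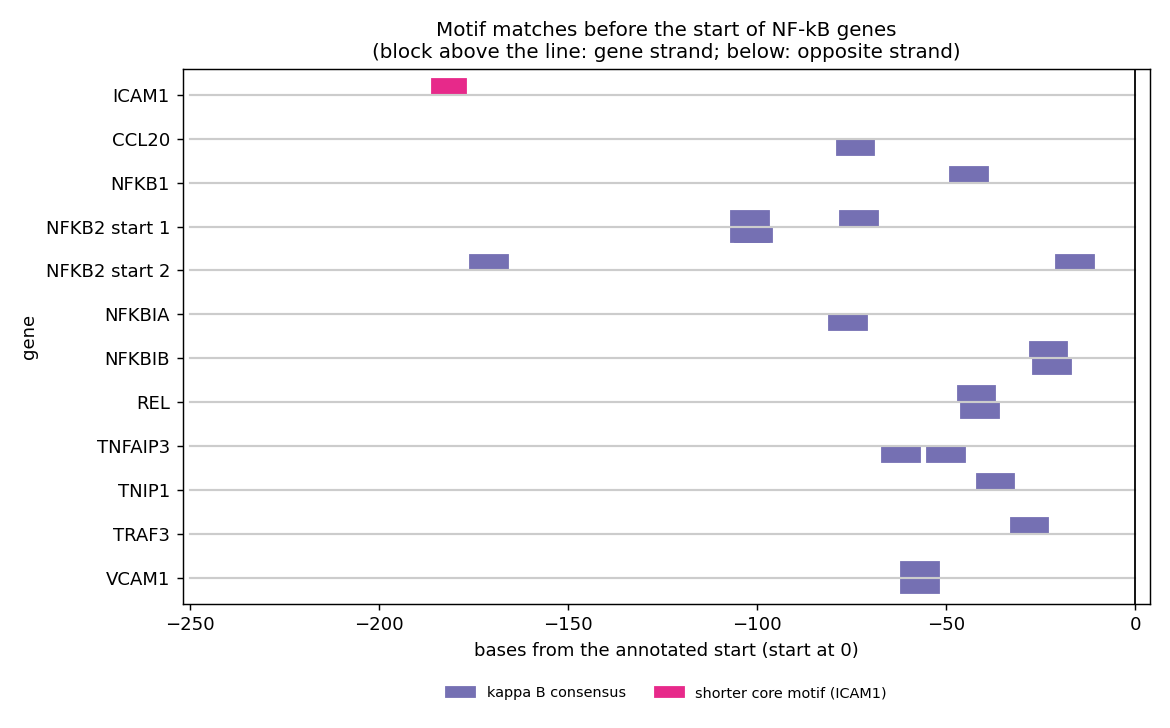
Position of motif matches (x axis, bases from the annotated start at 0) in the 250 bases before the start of ICAM1 and of the 10 members with the kappa B consensus (y axis, NFKB2 with both its starts). Blocks above a line lie on the gene's strand and blocks below it on the opposite strand; 3 members carried the exact GGGACTTTCC and ICAM1 only the shorter core.

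Of the 10 measured members with a consensus match, 0 were called higher and 3 lower in the docetaxel-resistant line (NFKBIA, TNFAIP3 and TRAF3), with a median difference of -0.44. Of the 21 with an entry and no match, 4 were called higher and 7 lower, with a median of -0.18. In the paclitaxel-resistant line the first group had 0 higher and 1 lower, with a median of -0.28, and the second 4 higher and 7 lower, with a median of -0.29. The remaining 7 measured members had no promoter entry, and 2 of them were lower in each line. Over all genes 21.0% and 21.6% were called. The groups are small, and the difference between them was not tested.

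The 5 subunits came first among the roles examined, since they form the factor itself. None was called in either line by limma, while an unadjusted p lay below 0.05 for 3 of them in the docetaxel- and for 2 in the paclitaxel-resistant line. Of all 11963 genes, 3895 and 3879 lay below that cut. RELA, the p65 subunit of the main activating dimer, read 480, 594 and 1006 on the sensitive arrays, 528, 509 and 382 on the docetaxel-resistant and 531, 440 and 542 on the paclitaxel-resistant arrays. Sensitive replicate 3 stood far above the rest and all 3 groups overlapped. Its differences were -0.59 ± 0.27 (adjusted p = 0.149) and -0.41 ± 0.27 (adjusted p = 0.335). Without sensitive replicate 1 they were -0.89 (adjusted p = 0.0167) and -0.71 (adjusted p = 0.0463), so the array left out decides whether RELA is called.

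NFKB1, which encodes the p105 precursor of the p50 subunit, read 207, 187 and 226 on sensitive arrays, 217, 226 and 214 on docetaxel-resistant and 201, 143 and 178 on paclitaxel-resistant ones. In deposited intensity both resistant lines overlapped the sensitive arrays, and the docetaxel-resistant arrays all lay above the paclitaxel-resistant ones. After normalisation the paclitaxel-resistant arrays lay below the sensitive ones without overlap. The normalised differences were -0.06 ± 0.14 (95% interval -0.36 to 0.24) and -0.25 ± 0.14 (-0.55 to 0.04). NFKB2, the p100 precursor of p52 in the alternative branch of the pathway, read 168, 235 and 161 on sensitive arrays, 151, 152 and 127 on docetaxel-resistant and 116, 125 and 142 on paclitaxel-resistant ones. Both resistant lines lay below the sensitive arrays in deposited intensity, but after normalisation the docetaxel-resistant arrays overlapped the sensitive ones. The differences were -0.50 ± 0.23 (adjusted p = 0.15) and -0.53 ± 0.23 (adjusted p = 0.130), and median centring brought the second past the threshold (adjusted p = 0.0456).

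RELB, the partner of p52, read 107, 122 and 142 on sensitive arrays, 103, 105 and 67.4 on docetaxel-resistant and 113, 68.7 and 77.6 on paclitaxel-resistant ones. Every docetaxel-resistant array lay below the sensitive ones, by a small margin in 2 of the 3, and paclitaxel-resistant replicate 1 overlapped them in deposited intensity. Its difference was -0.55 ± 0.20 in each line (adjusted p = 0.0777 and 0.0812). Without docetaxel-resistant replicate 3 the paclitaxel value had an adjusted p of 0.0325. REL, the c-Rel subunit known chiefly from lymphocytes, read 11.4, 13.2 and 16.8, then 14.9, 19.6 and 4.14, then 15.2, 11.5 and 16.4 in the same order of groups. All 9 values lay under the lowest array median of 33.7, where a difference is hard to see, and the differences were -0.12 and 0.01.

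The inhibitors hold the subunits in the cytoplasm, and some of their genes are also known NF-kB targets. Of the 3 measured, 2 fell in the docetaxel-resistant line and 1 in the paclitaxel-resistant line, where 10.2% and 10.7% of all genes were called lower. NFKBIE, which encodes I kappa B epsilon, read 224, 205 and 228 on sensitive arrays, 90.5, 111 and 87 on docetaxel-resistant and 109, 77.2 and 101 on paclitaxel-resistant ones. No resistant array came near the sensitive ones and the resistant lines overlapped each other. It fell by 1.22 ± 0.15 (adjusted p = 0.000207) and by 1.12 ± 0.15 (adjusted p = 0.000363), calls that were kept under every alternative in which the gene was measured.

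NFKBIA, which encodes the main inhibitor I kappa B alpha, read 1070, 1358 and 1126 on sensitive arrays, 685, 723 and 551 on docetaxel-resistant and 1118, 1043 and 810 on paclitaxel-resistant ones. The docetaxel-resistant arrays lay below all others, while the paclitaxel-resistant arrays overlapped the sensitive ones. It fell by 0.91 ± 0.19 in the docetaxel-resistant line (adjusted p = 0.00665) and stood at -0.26 ± 0.19 in the paclitaxel-resistant line (adjusted p = 0.403). The paclitaxel- minus docetaxel-resistant difference was 0.64 ± 0.19 (95% interval 0.21 to 1.07, adjusted p = 0.134). NFKBIB, I kappa B beta, was not called, at -0.43 (adjusted p = 0.130) and -0.30 (adjusted p = 0.308).

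**Figure D3:**
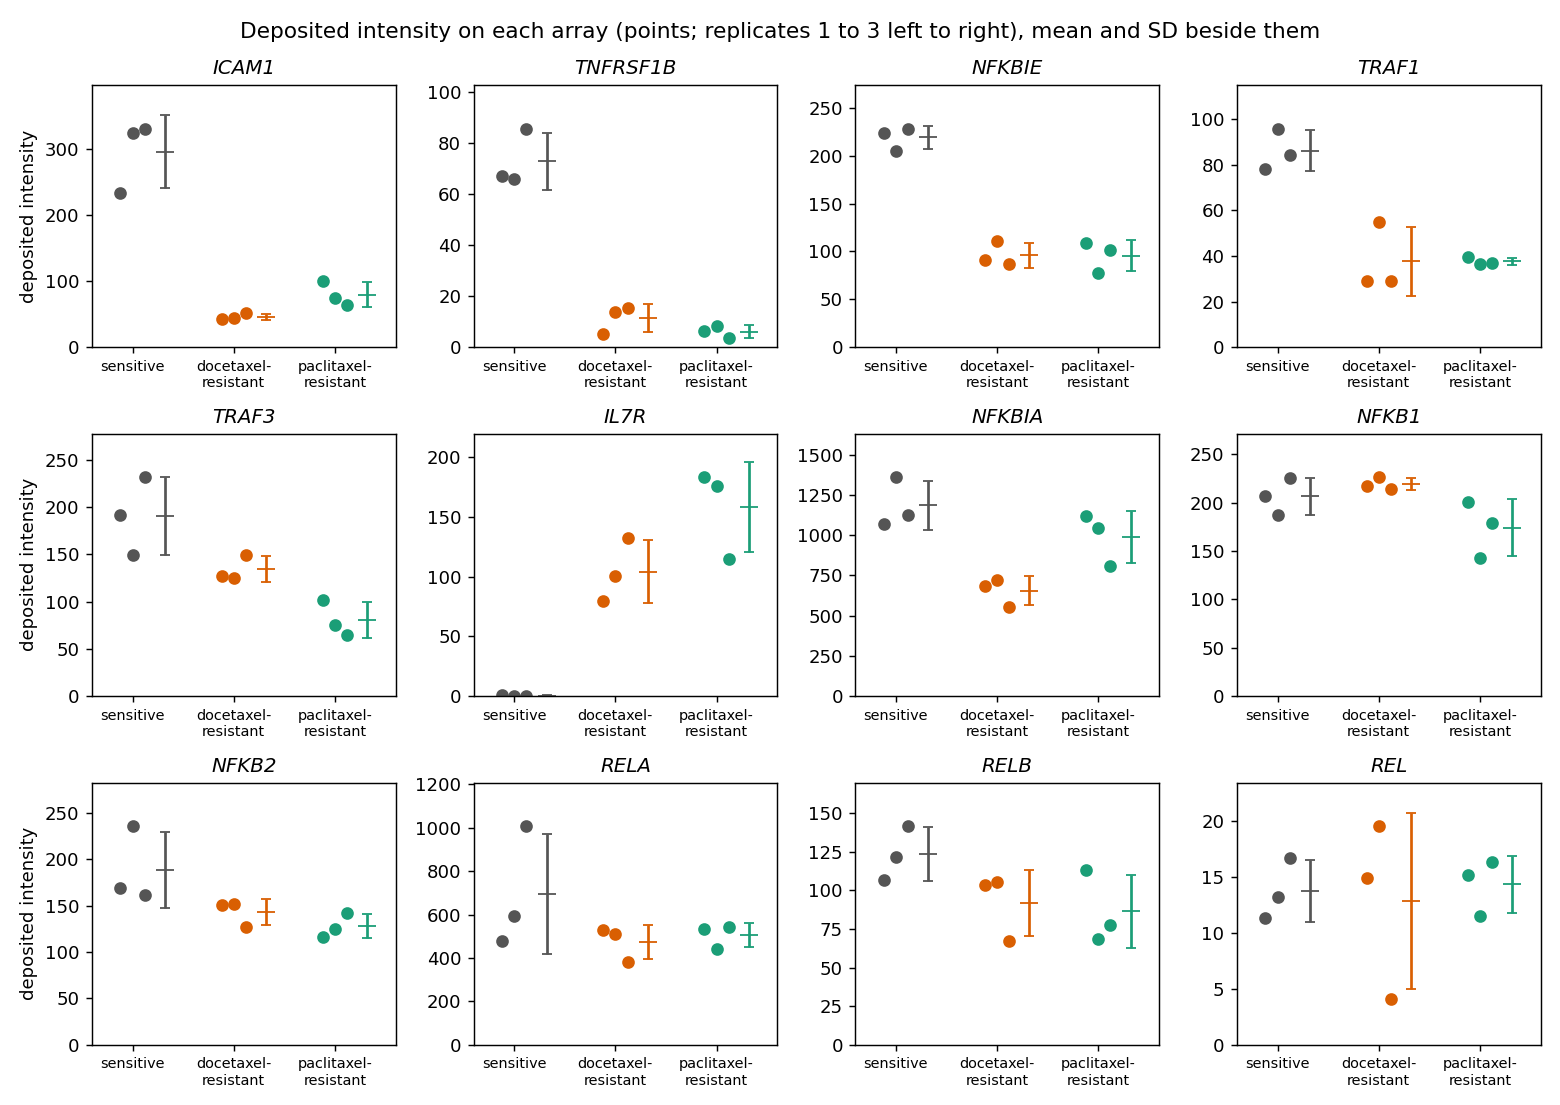
Deposited intensity (y axis, linear and starting at 0, with its own range per gene) on each of the 9 arrays for the 12 NF-kB genes whose array values are given in the text, by group (x axis; grey sensitive, orange docetaxel-resistant, green paclitaxel-resistant). Points are arrays and the bars beside them the mean and SD of 3; NFKBIE runs from 205 to 228 on sensitive and from 77.2 to 111 on resistant arrays, while RELA overlaps in all 3 groups.

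Among the 6 genes for kinases and their direct partners, IKBKB and IKBKE fell in both lines while MAP3K7 and TAB2, which act above them, rose. IKBKB, the catalytic subunit that marks the inhibitors, went from a mean intensity of 87.9 ± 21.8 (SD, n = 3) in sensitive cells to 49.4 ± 8.45 and 56.5 ± 17.5 in the docetaxel- and paclitaxel-resistant lines. It fell by 0.81 ± 0.16 (adjusted p = 0.00426) and by 0.62 ± 0.16 (adjusted p = 0.0171). All 3 of its probe sets were called lower in both lines. Its calls ended without normalisation between arrays, at an adjusted p of 0.0589 and 0.121. The paclitaxel call also ended when sensitive replicate 3 (0.0596), paclitaxel-resistant replicate 2 (0.0510) or replicate 3 (0.0679) was left out. IKBKE, the related kinase of the interferon branch, went from 289 ± 40.1 to 180 ± 11.1 and 186 ± 5.66, and fell by 0.78 ± 0.14 (adjusted p = 0.00240) and 0.60 ± 0.14 (adjusted p = 0.00947).

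MAP3K7, the TAK1 kinase that activates the I kappa B kinases, went from 50.3 ± 10.7 to 124 ± 38.4 under docetaxel and 94.1 ± 13 under paclitaxel. It rose by 0.86 ± 0.18 (adjusted p = 0.00560) and by 0.66 ± 0.18 (adjusted p = 0.0221). The latter call ended without sensitive replicate 2 or 3 or paclitaxel-resistant replicate 2, at an adjusted p of 0.0797 to 0.0890. TAB2, which couples TAK1 to ubiquitin chains, went from 46.4 ± 14.1 to 104 ± 38.8 and 96.0 ± 14.8. It rose by 0.75 ± 0.18 (adjusted p = 0.0132) and 0.81 ± 0.18 (adjusted p = 0.00881), and without sensitive replicate 2 neither call held (adjusted p = 0.0681 and 0.0834). For both genes the highest array was docetaxel-resistant replicate 3, at 166 for MAP3K7 and 149 for TAB2, and without it the docetaxel call of TAB2 also ended (adjusted p = 0.0530). CHUK, the second catalytic I kappa B kinase, stayed under the lowest array median on every array and differed by 0.07 and -0.13. MAP3K14, the NIK kinase of the alternative branch, stood at -0.37 (adjusted p = 0.232) and -0.31 (adjusted p = 0.329).

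The adaptors link receptors to these kinases, and 8 of 11 were measured. In the docetaxel-resistant line 1 rose and 3 fell, and in the paclitaxel-resistant line 1 rose and 4 fell. Over all genes 10.8% were called higher in each line, and 10.2% and 10.7% lower. TRAF1, an adaptor whose gene is itself a known NF-kB target, read 78.2, 95.9 and 84.2 on sensitive arrays, 28.9, 54.9 and 28.9 on docetaxel-resistant and 39.6, 36.6 and 36.9 on paclitaxel-resistant ones. The groups of resistant arrays lay below the sensitive ones with a clear gap, and docetaxel-resistant replicate 2 was the highest of them. TRAF1 fell by 1.13 ± 0.19 (adjusted p = 0.00190) and 1.04 ± 0.19 (adjusted p = 0.00281).

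TRAF3, which restrains the alternative branch by keeping NIK low, read 192, 149 and 231 on sensitive arrays, 127, 125 and 150 on docetaxel-resistant and 102, 75.1 and 64.7 on paclitaxel-resistant ones. The paclitaxel-resistant arrays were the lowest, and docetaxel-resistant replicate 3 touched the lowest sensitive array. TRAF3 fell by 0.60 ± 0.15 (adjusted p = 0.0124) and by 1.16 ± 0.15 (adjusted p = 0.000255). The direct difference between the lines was -0.55 ± 0.15 (95% interval -0.87 to -0.23, adjusted p = 0.0837). A second probe set of TRAF3 stood at -0.18 and 0.03 and was not called. The docetaxel call ended without sensitive replicate 2 (adjusted p = 0.0601), without docetaxel-resistant replicate 2 (0.0530) and without normalisation (0.138).

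TRAF5, a further adaptor of tumour necrosis factor receptors, was the 1 adaptor that rose. It went from 16.8 ± 3.13 in sensitive cells, below every array median, to 44.0 ± 6.88 and 35.7 ± 5.44. The differences were 0.77 ± 0.13 (adjusted p = 0.00169) and 0.62 ± 0.13 (adjusted p = 0.00572). Over all alternatives they ran from 0.37 to 1.2 and from 0.29 to 0.98. MYD88, the adaptor of interleukin-1 and Toll-like receptors, went from 609 ± 49.4 to 450 ± 57.8 and 372 ± 44.0. It fell by 0.51 ± 0.15 (adjusted p = 0.0275) and 0.69 ± 0.15 (adjusted p = 0.00565). The docetaxel call ended without sensitive replicate 2 (adjusted p = 0.115), docetaxel-resistant replicate 1 (0.0568) or 3 (0.114), and also with a pseudocount of 1 (0.0594), without normalisation (0.0679) and with the 6 arrays compared alone (0.0523).

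IRAK1, the kinase that MYD88 recruits, went from 2358 ± 169 to 2102 ± 240 and 1666 ± 205. It stood at -0.18 in the docetaxel-resistant line (adjusted p = 0.387) and fell by 0.48 ± 0.13 in the paclitaxel-resistant line (adjusted p = 0.0249), a call that ended with a pseudocount of 1 (0.0562), or when sensitive replicate 3 (0.0675), paclitaxel-resistant replicate 1 (0.0611) or replicate 3 (0.0916) was left out. TRAF6, which carries the same signal on to TAK1, was not called, at -0.20 and -0.29. TRADD, the death domain adaptor of the tumour necrosis factor receptor, stood at 0.13 and 0.05. RIPK2, the kinase of the NOD receptors, stood at -0.06 and -0.43 (adjusted p = 0.110 in the paclitaxel-resistant line).

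Of the genes grouped as feedback regulators, TNFAIP3 and TNIP1 restrain the signal, and their transcripts usually follow NF-kB activity. TNFAIP3, the ubiquitin-editing enzyme A20, went from 81.2 ± 16.4 to 63.3 ± 4.90 and 62.9 ± 10.4. It fell by 0.46 ± 0.14 in the docetaxel-resistant line (adjusted p = 0.0427), a call that was lost in 16 of 20 alternatives, at an adjusted p of up to 0.408. In the paclitaxel-resistant line it stood at -0.40 (adjusted p = 0.0713). TNIP1, which works with A20, stood at -0.50 (adjusted p = 0.0974) and -0.47 (adjusted p = 0.120). Median centring brought TNIP1 past the threshold (0.0378 and 0.0424), as did leaving out sensitive replicate 1 (0.0241 and 0.0299). TNFAIP2, a gene induced by tumour necrosis factor, went from 263 ± 45.2 to 177 ± 14.7 and 147 ± 7.71. It fell by 0.68 ± 0.16 (adjusted p = 0.0116) and 0.80 ± 0.16 (adjusted p = 0.00464). With the mean of its probe sets neither call of TNFAIP2 held (0.0620 and 0.0884), its other probe set being at -0.27 and -0.06. The docetaxel call also ended without sensitive replicate 2 (0.0543).

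The receptors held the strongest rise and one of the strongest falls among the members. TNFRSF1B, tumour necrosis factor receptor 2, read 67.0, 65.9 and 85.7 on sensitive arrays, 5.25, 14 and 15.4 on docetaxel-resistant and 6.35, 8.35 and 3.44 on paclitaxel-resistant ones. It stood above the array medians in sensitive cells alone and was near the floor of the arrays in both resistant lines. It fell by 1.83 ± 0.17 (adjusted p = 3.08e-05) and by 2.11 ± 0.17 (adjusted p = 1.09e-05). The size depends on the offset: over all alternatives it ran from -2.83 to -0.93 and from -3.56 to -1.03. TNFRSF1A, tumour necrosis factor receptor 1, went from 576 ± 10.4 to 375 ± 51.7 and 456 ± 50.7. It fell by 0.71 ± 0.14 in the docetaxel-resistant line (adjusted p = 0.00353) and stood at -0.34 in the paclitaxel-resistant one (adjusted p = 0.103, and 0.0415 with a pseudocount of 64).

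IL7R, the interleukin-7 receptor chain known from lymphocytes, read 0.57, 0.01 and 0.14 on sensitive arrays, 79.6, 101 and 132 on docetaxel-resistant and 183, 176 and 115 on paclitaxel-resistant ones. It was at the floor in sensitive cells and above every array median in both resistant lines. It rose by 2.76 ± 0.17 (adjusted p = 1.08e-06) and by 3.43 ± 0.17 (adjusted p = 2.28e-07), and over all alternatives the differences ran from 1.30 to 6.27 and from 1.80 to 7.02. The direct difference between the lines was 0.67 ± 0.17 (adjusted p = 0.0749), which passed the threshold without paclitaxel-resistant replicate 3 (0.0459). The 14 measured of 16 leukocyte markers summed to 1414 to 2375 on sensitive, 2427 to 2912 on docetaxel-resistant and 1353 to 1989 on paclitaxel-resistant arrays. Their median differences were -0.02 and -0.03, and 12 of 14 were not called in each line. Over all genes 21.0% and 21.6% were called. LCP1, the actin bundler of blood cells, rose by 4.18 and 1.28, and CSF1R, the macrophage growth factor receptor, fell, at -0.49 and -0.47. The lowest difference of any of the 14 was -0.49 and -0.78, so another marker stood below CSF1R in the paclitaxel-resistant line. In each line 8 of the 14 differences were negative and 6 positive. The pan-leukocyte PTPRC did not exceed 11.6 on any array.

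The other receptors were not called. CD40 stood at -0.11 and -0.05, and its other 3 probe sets were not called either. LTBR, the lymphotoxin receptor of the alternative branch, stood at -0.03 and -0.09 (95% intervals -0.49 to 0.43 and -0.55 to 0.37). IL1R1, the interleukin-1 receptor, stood at 0.13 and 0.20, and its partner IL1RAP, under the lowest array median throughout, at -0.04 and 0.08.

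Of the 6 membrane and secreted targets 1 was called, and that was ICAM1, the leukocyte adhesion molecule. Over all genes 21.0% and 21.6% were called. ICAM1 read 233, 325 and 331 on sensitive arrays, 42.5, 44.6 and 51.3 on docetaxel-resistant and 101, 74.5 and 63.6 on paclitaxel-resistant ones. On this probe set the 3 groups did not overlap: sensitive arrays were highest and docetaxel-resistant arrays lowest. On a second probe set paclitaxel-resistant replicate 2, at 16.25, lay below every docetaxel-resistant array. There the paclitaxel- minus docetaxel-resistant difference was 0.56 (limma adjusted p = 0.403 over all probe sets). ICAM1 fell by 2.43 ± 0.19 (adjusted p = 7.70e-06) and by 1.76 ± 0.19 (adjusted p = 8.46e-05). The paclitaxel- minus docetaxel-resistant difference was 0.67 ± 0.19 (95% interval 0.26 to 1.09, adjusted p = 0.105). It passed the threshold with only the 6 arrays of those lines (0.0413) and without sensitive replicate 1 (0.0411).

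The remaining targets, VCAM1, PTGS2, TNF, CCL5 and CCL20, had no array above 27.3 and so stayed below the lowest array median in all 3 groups. VCAM1, an adhesion molecule like ICAM1, stood at -0.19 and -0.11, and the cyclooxygenase PTGS2 at 0.00 and -0.17. The cytokine TNF stood at 0.05 and 0.20, and the chemokines CCL5 and CCL20 at -0.28 and -0.19 and at -0.13 and -0.07. With REL, CHUK and IL1RAP these made 8 of the 38 members so low that a change could not be detected well, and the other 30 rose above that level on at least 1 array.

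Because 18 members had several probe sets, each probe set was also tested, over all 22215 of the arrays. Of the 64 that name a member, 22 were called in the docetaxel-resistant line, 20 in the paclitaxel-resistant line and 0 between the lines, where 3922, 4128 and 356 of all were. ICAM1 had 2 probe sets that fell, the second with differences of -2.51 and -1.95, and the third was not called, at -0.51 (adjusted p = 0.130) and -0.37 (adjusted p = 0.285). IKBKE had a second probe set at -0.36 under docetaxel (adjusted p = 0.143) and -0.77 under paclitaxel (adjusted p = 0.00486). Of the 4 probe sets of MAP3K7, 3 were called higher against sensitive cells in the line under docetaxel and 2 in the line under paclitaxel, and both of TAB2 in each. No member had probe sets called in opposite directions.

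**Figure D4:**
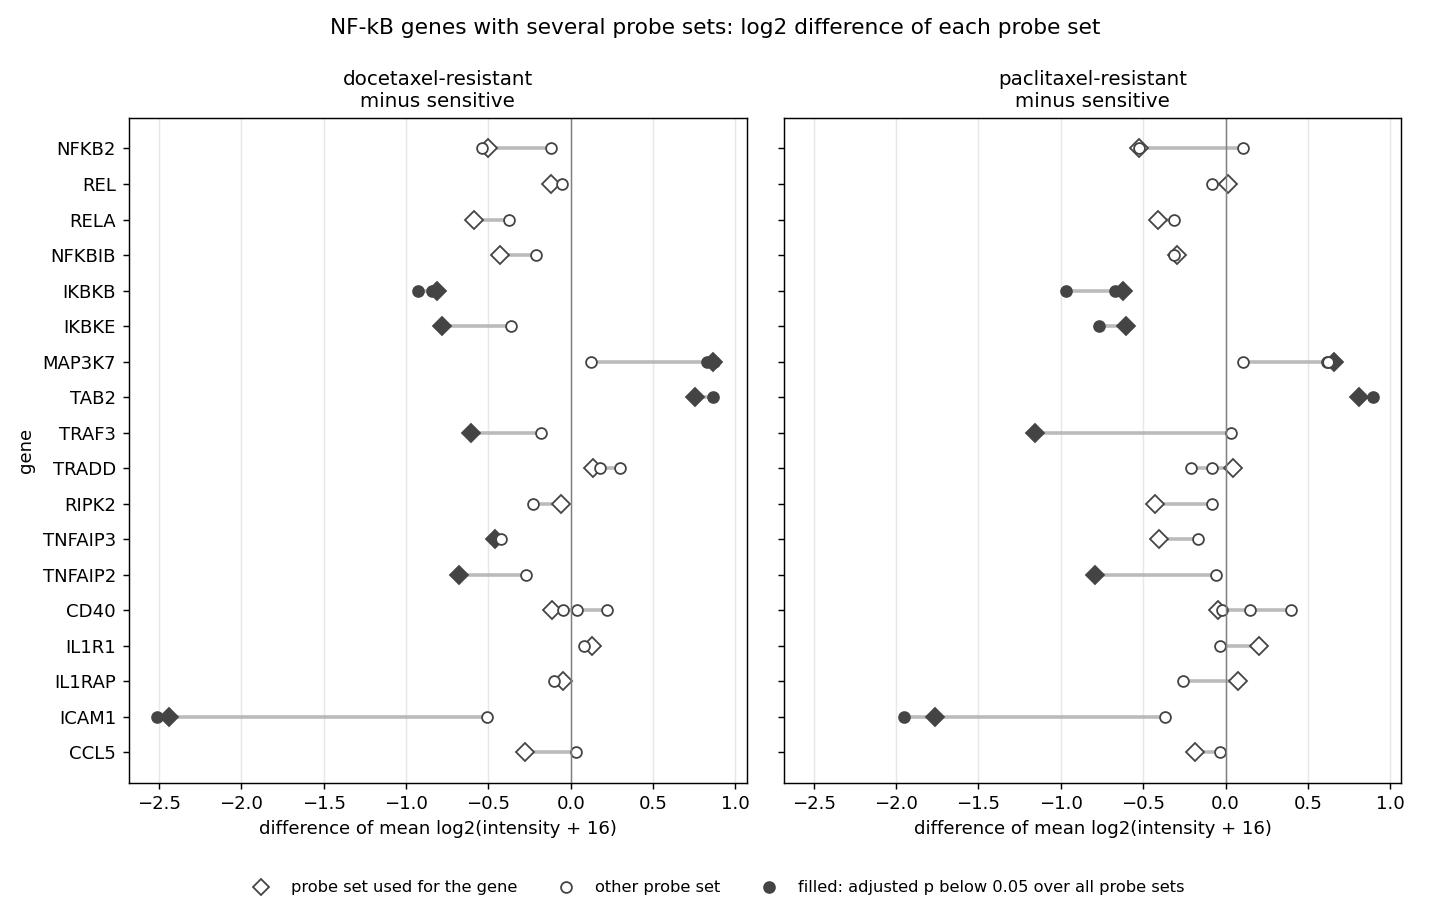
Log2 difference (x axis, difference of mean log2(intensity + 16)) of every probe set of the 18 NF-kB genes that had several (y axis), in the docetaxel-resistant (left) and paclitaxel-resistant (right) line against sensitive cells. Diamonds are the probe set used for the gene, circles the others, and filled symbols are called over all probe sets; ICAM1 had 2 probe sets at -2.43 and -2.51 on the left and a further one at -0.51.

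The direct comparison asked whether the lines differed from each other in these genes. None of the 38 was called by limma, where 235 of all genes (1.96%) were, 0.978% higher and 0.986% lower, and 6 had an unadjusted p below 0.05: NFKBIA, TRAF3, IRAK1, TNFRSF1A, IL7R and ICAM1. Of all 11963 genes 1564 lay below that cut, a share close to 6 of 38. On the normalised scale the arrays of the 2 lines did not overlap in 6 genes, 4 of them higher and 2 lower in the paclitaxel-resistant line, where 20.4% of all genes did not overlap, 10% higher and 10.4% lower. The median difference was 0.06, against 0.02 over all genes, and the median absolute difference 0.13 against 0.15.

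Other components of the pathway, 64 measured of 79 listed with earlier results of these data known, moved in both directions. In each line 9 were called higher and 9 lower (28.1%), where 21.0% and 21.6% of all genes were called. CYLD, the deubiquitinase that dampens the signal, rose by 2.34 ± 0.22 (adjusted p = 3.11e-05) and 1.46 ± 0.22 (adjusted p = 0.000723). When probe sets with the endings _x_at and _s_at were left out, another probe set of CYLD stood at 0.13 and 0.20 and was not called. BCL10, an adaptor of antigen receptors, rose by 1.51 ± 0.19 (adjusted p = 0.000229) and 0.84 ± 0.19 (adjusted p = 0.00764, and 0.0635 without sensitive replicate 2). IL18, an interleukin-1 family cytokine, rose by 1.23 and 0.73, the latter not called without sensitive replicate 2 (0.0603).

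Among the lower components, FADD, the death receptor adaptor, fell by 0.85 ± 0.14 (adjusted p = 0.00158) and 1.07 ± 0.14 (adjusted p = 0.000369). IKBKG, the NEMO subunit that holds the I kappa B kinases together, fell by 0.64 (adjusted p = 0.00841) and 0.78 (adjusted p = 0.00272). Without the _x_at and _s_at probe sets the paclitaxel value of IKBKG was -0.51 (adjusted p = 0.0574). IL1B, interleukin-1 beta, fell by 0.81 and 0.75 (adjusted p = 0.00347 and 0.00506). TNFRSF10B, the death receptor for the ligand TRAIL, fell by 0.76 in the docetaxel-resistant line (adjusted p = 0.00302) and stood at 0.03 in the paclitaxel-resistant line (adjusted p = 0.907). Without sensitive replicate 2 and docetaxel-resistant replicate 3 the docetaxel calls of IKBKG (0.0863), IL1B (0.0699) and TNFRSF10B (0.0565) ended.

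Other known NF-kB targets, 58 measured of 64 listed, were called more often lower than higher. This list was made with earlier results of these data known, so its shares are no independent support. In the docetaxel-resistant line 6 rose and 19 fell (43.1% called), and in the paclitaxel-resistant line 6 rose and 22 fell (48.3%), where 21.0% and 21.6% of all genes were called, 10.2% and 10.7% lower. Their median differences were -0.34 and -0.20, against -0.05 and -0.02 over all genes. The neutrophil-attracting chemokine CXCL2 read 108, 221 and 220 on sensitive arrays and no more than 17.7 on any resistant one, and it fell, with differences of -2.73 ± 0.26 (adjusted p = 3.54e-05) and -2.90 ± 0.26 (adjusted p = 2.06e-05). Its neighbour in function CXCL1 fell too, at -3.58 and -3.33, and so did the cytokine IL6, at -3.79 and -3.77. F3, the coagulation starter tissue factor, and the monocyte chemokine CCL2 went the other way, F3 with rises of 1.82 and 1.00 and CCL2 with rises of 3.66 and 3.85. TGM2, a protein-crosslinking enzyme, fell by 1.49 (adjusted p = 0.000526) and by 2.68 (adjusted p = 9.56e-06).

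Markers of other states of the cells moved as well. The 5 mesenchymal markers summed to 10485 to 12507 on sensitive, 5969 to 6309 on docetaxel-resistant and 6774 to 7861 on paclitaxel-resistant arrays, with 3 of 5 called lower in each line. The 9 epithelial markers summed to 6503 to 7627, 6576 to 7592 and 6491 to 7092, and 1 of 9 was called higher in each line. Over all genes 10.8% were called higher in each line, and 10.2% and 10.7% lower. The 7 endothelial markers summed to 188 to 301, 169 to 197 and 155 to 194, and the 9 fibroblast markers to 306 to 365, 370 to 430 and 349 to 428. Their part in the differences of the NF-kB genes was not tested.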

How the data were processed

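Total RNA of 9 cultures was hybridised to Affymetrix arrays, and the deposited values are linear probe set intensities. Per the submitters' processing notes, Affymetrix Expression Console 1.1.2 and PLIER made them, and background correction and between-array normalisation by the authors are not stated in the labels or file header. Every one of the 9 value columns entered the fit. Of 22215 human probe sets (68 controls left out), 19065 named 1 gene, 1043 several and 2107 none, and 19053 matched the RefSeq gene table. The probe set of highest mean was used per gene, which gave 11963 genes.

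Values were taken as log2(intensity + 16) and quantile-normalised, since array medians differed by 0.27, above a limit of 0.2. With limma 3.58.1 in R 4.3.3, 1 model of 3 group means (6 residual and 5.40 prior degrees of freedom) gave the contrasts and the F test. P-values are two-sided. The median standard error was 0.16, so the small number of arrays sets the precision. The procedure was tested on simulated data. No pair of arrays shared more than 0.234% of its values exactly.

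Array values are printed for members called with a log2 difference of at least 1 in either direction, for the 5 subunits and for NFKBIA. Of the other lists, up to 5 called genes of smallest adjusted p per comparison with sensitive cells are named. The members and lists were chosen with earlier results of these data known. A setting that leaves out the arrays with the lowest and the highest median was added after seeing the data.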

Additional observations from a re-analysis of the deposited data

Results flagged for a closer look

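Among the members no direct difference between the resistant lines was called, and among the listed pathway components and targets 4 were, where 1.96% of all genes were called. Each of these was picked out by the test of the paclitaxel- minus docetaxel-resistant difference itself.

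TNFRSF10B, the death receptor for TRAIL, read 543, 522 and 626 on sensitive arrays, 333, 380 and 342 on docetaxel-resistant and 705, 542 and 518 on paclitaxel-resistant ones. The docetaxel-resistant arrays lay below all others. The difference between the lines was 0.80 (limma adjusted p = 0.0170), and it was no longer called in 9 alternatives, at an adjusted p of up to 0.138.

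PLAU, the urokinase-type plasminogen activator, read 1340, 1341 and 1326 on sensitive arrays, 945, 1187 and 1026 on docetaxel-resistant and 405, 446 and 481 on paclitaxel-resistant ones. The 3 groups did not overlap. The difference between the lines was -1.17 (adjusted p = 0.00222) and remained called under all alternatives run. F3, tissue factor, rose in both lines and more in the docetaxel-resistant one, with a difference of -0.82 (adjusted p = 0.0223, and up to 0.123 over 10 alternatives in which it was not called). TGM2 fell in both lines and further in the paclitaxel-resistant one, with a difference of -1.19 (adjusted p = 0.0152, and up to 0.0774 in the alternatives in which it was not called).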

How the results depend on the processing

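No called member changed its direction under any alternative run. Of the calls, 8 of 16 in the docetaxel- and 9 of 14 in the paclitaxel-resistant line held under all in which the gene was measured. With 1 array left out, members called ran from 11 to 18 (3 to 4 higher, 8 to 14 lower) in the docetaxel-resistant line, from 11 to 17 (2 to 4 higher, 8 to 13 lower) in the paclitaxel-resistant line, from 0 to 1 (higher) between the lines and from 13 to 18 by the F test. All genes called ran from 1587 to 2582, from 1887 to 2707 and from 78 to 243. Without _x_at and _s_at probe sets, 8 members were called in each line (2 higher, 6 lower) and 8 by the F test, of 23 measured. Of the 8369 genes then measured, 1431 (17.1%), 1495 (17.9%) and 110 were called. All 8 members called before and still measured stayed called in each line. They kept the same probe set and the same values there, so this is hardly a check. ICAM1, NFKBIA, IKBKB, MAP3K7, TAB2 and TNFAIP2 have only probe sets with those endings and could not be checked this way. Among genes at or above the median level 12 and 11 of 24 members were called, 2 of them higher in each line. Of all genes at that level 37.3% and 38.4% were called. With only the 6 arrays compared, 1 member (ICAM1) was called between the lines. Without sensitive replicate 2 and docetaxel-resistant replicate 3, 9 members (6 lower) and 1049 genes were called in the docetaxel-resistant line. At a threshold of 0.01, 1368, 1458 and 72 of all genes were called. Between the lines all genes called were 72 with a pseudocount of 1, 380 with 64, 143 without normalisation, 139 with the replicate block and 67 with the lowest- and highest-median arrays left out. With the replicate block 15 and 14 members were called, TNFAIP3 being lost (adjusted p = 0.0738). Same-numbered arrays deviated together at -0.45 to 0.34 and 1 of 9 correlated best with its own number, so the numbers were taken as names. The kappa B share of members was 8.57% with the exact motif; over all genes it was 7.09% with 300 bases and 0.216% with the exact motif. No setting moved the median of all genes by over 0.1 on the log2 scale. Signal over background limits the 8 lowest members.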
